A study of Mus musculus with 9 samples.

Results

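The Hox cluster miRNAs are mmu-miR-10a, mmu-miR-10b, mmu-miR-196a, mmu-miR-196b and mmu-miR-615 (written without mmu below), whose hairpin genes lie among the Hox genes. These 5 were chosen by that position from the 1164 mouse miRNAs listed in the deposited counts, with the values of all 9 libraries already known, so their levels and differences are given as a description and without p-values. The libraries hold small RNA from pellets of small extracellular vesicles (smEVs), purified by differential centrifugation from the medium of immortalised mouse kidney medullary (KM) cells. One cell line was Bbs4-/-, lacking a subunit of the BBSome, the complex that moves proteins in and out of the cilium. Another was Bbs6-/-, lacking a chaperonin-like protein that helps to assemble the BBSome, and the third was the WT control line. All 3 lines were grown to confluency and then kept for 24 h without serum, and 3 smEV pellets of each were sequenced. Each genotype was 1 line, isolated from knockout mice for the mutants, so an effect of the genotype and a property of the line cannot be told apart.

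Hox genes encode the homeobox transcription factors that give cells their position along the body axis, and they stand in 4 clusters whose order follows that axis. The miR-10 genes lie next to the Hox4 genes and the miR-196 genes next to the Hox9 and Hox10 genes, so these miRNAs are carried along with the cluster and are often transcribed with their Hox neighbours. miR-10 and miR-196 are also known to repress Hox transcripts, with the pairing of miR-196 to Hoxb8 as the textbook case. A miRNA finds its targets mainly through its seed, bases 2 to 8, and miR-10a and miR-10b share one seed, as do miR-196a and miR-196b.

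The 5p mature sequences of both pairs show this, with the seed in capitals. All sequences are from RefSeq (GRCm38.p6) and run 5′ to 3′, and all 5 miRNAs were matched by name.
miR-10a-5p: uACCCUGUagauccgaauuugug
miR-10b-5p: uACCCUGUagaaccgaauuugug
miR-196a-5p: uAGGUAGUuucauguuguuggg
miR-196b-5p: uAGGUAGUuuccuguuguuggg
miR-615-3p: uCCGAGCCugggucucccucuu
miR-615-5p: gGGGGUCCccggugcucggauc

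Counting from 1 at the 5′ end, miR-10a-5p and miR-10b-5p differ at 1 of 23 bases (U12A), and miR-196a-5p and miR-196b-5p differ at 1 of 22 bases (A12C). The same sequences are shown again with only the differing base in capitals, since this base is all that tells the members of a pair apart.
miR-10a-5p: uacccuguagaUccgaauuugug
miR-10b-5p: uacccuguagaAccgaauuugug
miR-196a-5p: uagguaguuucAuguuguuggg
miR-196b-5p: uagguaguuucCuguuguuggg

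In each pair the differing base is outside the seed. How many mismatches the counting allowed is not given in the sources used here, so reads of one member may have been counted for the other, and the split within each pair carries that uncertainty. The deposited names give no arm, so the strand of the hairpin a count came from is not stated.

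The hairpin genes are spread over all 4 clusters (GRCm38, GENCODE vM21). Mir10a stands at chr11:96317165-96317274 on the plus strand, between Hoxb5 and Hoxb4 and 993 bp from Hoxb4. Mir10b stands at chr2:74726070-74726137 on the plus strand, in introns of Hoxd3 and Hoxd4. Mir196b stands at chr6:52230081-52230165 on the minus strand and overlaps Hoxa9, in an exon or an intron depending on the transcript. Mir615 stands at chr15:103014910-103015001 on the plus strand, in an intron of Hoxc5. miR-196a-5p has 2 genes, Mir196a-1 at chr11:96265164-96265265, in the Hoxb cluster 6192 bp from Hoxb9, and Mir196a-2 at chr15:102973350-102973434, in an intron of a long Hoxc5 transcript, both on the plus strand. The miR-196a row does not tell the Hoxb and Hoxc copies apart.

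**Figure D1:**
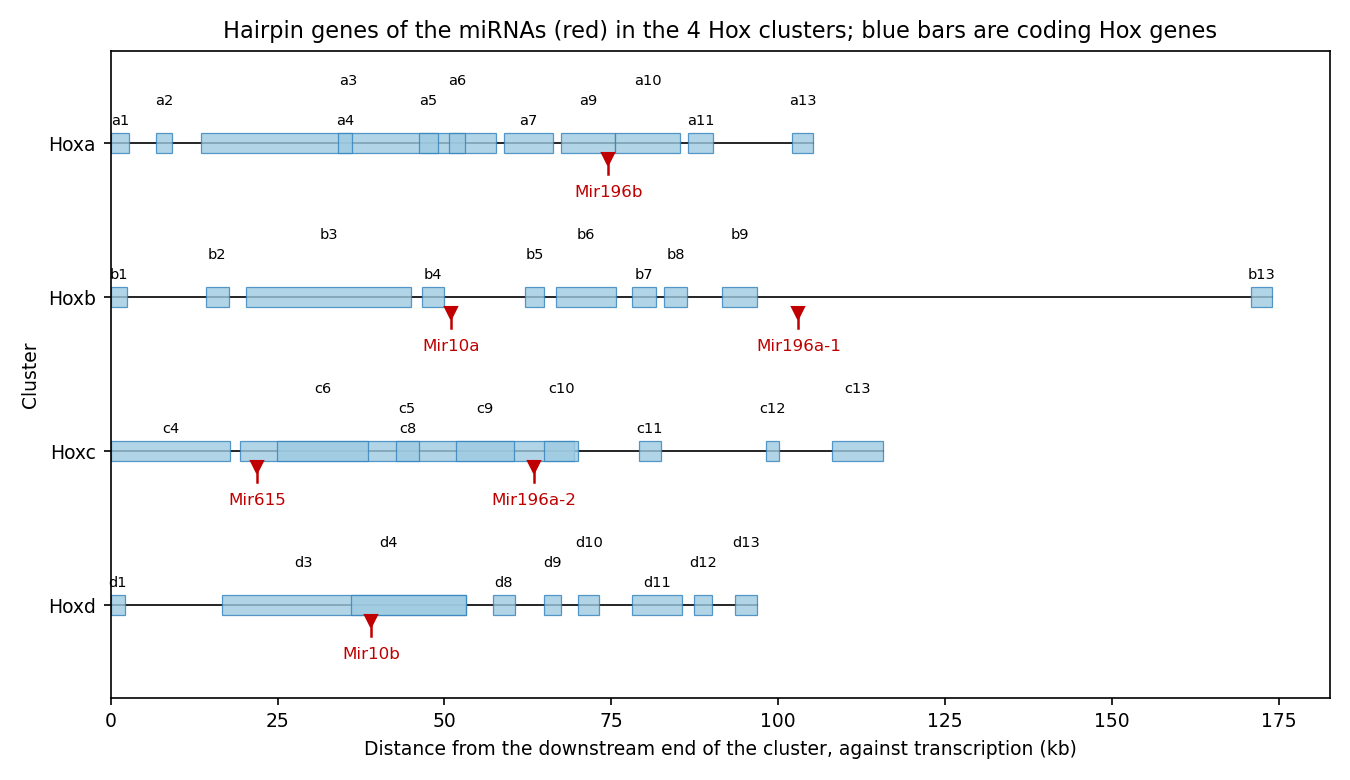
Positions of the hairpin genes (red) and the coding Hox genes (blue bars) in the 4 Hox clusters, with the distance in kb from the downstream end of each cluster on the horizontal axis, against the direction of transcription. The Hoxb and Hoxc clusters each hold a copy of the miR-196a gene, while miR-10a, miR-10b, miR-196b and miR-615 have 1 gene each.

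The total miRNA count ran from 64118 to 130905 in WT, 176935 to 457163 in Bbs4-/- and 192654 to 423784 in Bbs6-/-, with all WT totals below all mutant totals. Levels are CPM, counts scaled to library size, after scaling by edgeR's TMM method, and as the mature forms have 22 or 23 bases they may be compared between miRNAs as levels per length, although how well each sequence was captured was not measured. Libraries carry the numbers of the deposited table, which are 1, 3 and 4 for WT, 1, 2 and 3 for the Bbs4-/- line and 2, 3 and 4 for the Bbs6-/- line. Bbs6-/- replicate 2 stood apart from its group, since its chi-square divided by its degrees of freedom was 86.2 and 110 against replicates 3 and 4, which gave 12.4 against each other. Markers of epithelium were present in all lines. The 5 miR-200 family members summed to 9993 to 13305 CPM in WT, 16968 to 18926 in Bbs4-/- and 16551 to 21410 in Bbs6-/-. In WT, however, miR-141 was at 0 and miR-200c had 1 or 2 counts. Bbs6-/- replicate 2 was also low, with 1 count of miR-141 and 32 of miR-200c. Bbs6-/- replicates 3 and 4 had 57 and 62 counts of miR-141 and 1069 and 1542 of miR-200c. The 7 kidney epithelial entries summed to 36517 to 45738, 63794 to 69376 and 45983 to 51146 CPM in WT, Bbs4-/- and Bbs6-/-. Nearly all of these counts were miR-30a and miR-30d. The other entries, among them miR-192, miR-194 and miR-215, had at most 61 counts in any library. miR-194-1 was at 0 in every library and miR-194-2 at 0 in WT. The 4 mesenchymal entries summed to 80.1 to 162, 123 to 273 and 20.0 to 71.8 CPM, with miR-214 and miR-145a at 0 throughout. Of 6 listed blood cell entries 5 had a row, and these summed to 62.3 to 85.1, 2.33 to 63.2 and 0 to 43.9 CPM. They had at most 7 counts each in any library. The epithelial and kidney epithelial sums were lower in WT than in both mutants. For the kidney list the margin to Bbs6-/- was narrow (45738 against 45983 CPM). The log2 fold change of Bbs6-/- over WT was 0.05 (SE 0.16) for miR-30a, with overlap, and 0.69 (SE 0.17) for miR-30d, without. These sums were taken after TMM scaling and were not examined with plain library totals. The mesenchymal and blood cell sums rested on few counts. The part of these lists in the values of the Hox cluster miRNAs was not tested.

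The Hox cluster miRNAs were loaded at very different levels. Over all 9 libraries the order of mean level was miR-10a, miR-10b, miR-196a, miR-196b and miR-615, with miR-10a at 55999 CPM and miR-615 at 241 CPM. miR-10a was above miR-10b in 9 of 9 libraries and miR-196b above miR-615 in 9 of 9. The neighbours in the middle of the order were less apart, with miR-10b above miR-196a in 8 libraries and miR-196a above miR-196b in 7. Together the 5 had a level of 48945 ± 19570 CPM in WT, 75191 ± 9428 in Bbs4-/- and 84542 ± 6179 in Bbs6-/- (SD, n = 3 each). The sum ran from 32423 to 70557 CPM in WT, 64376 to 81684 in Bbs4-/- and 78075 to 90386 in Bbs6-/-. Bbs4-/- thus overlapped both other lines. Most of this sum was miR-10a.

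**Figure D2:**
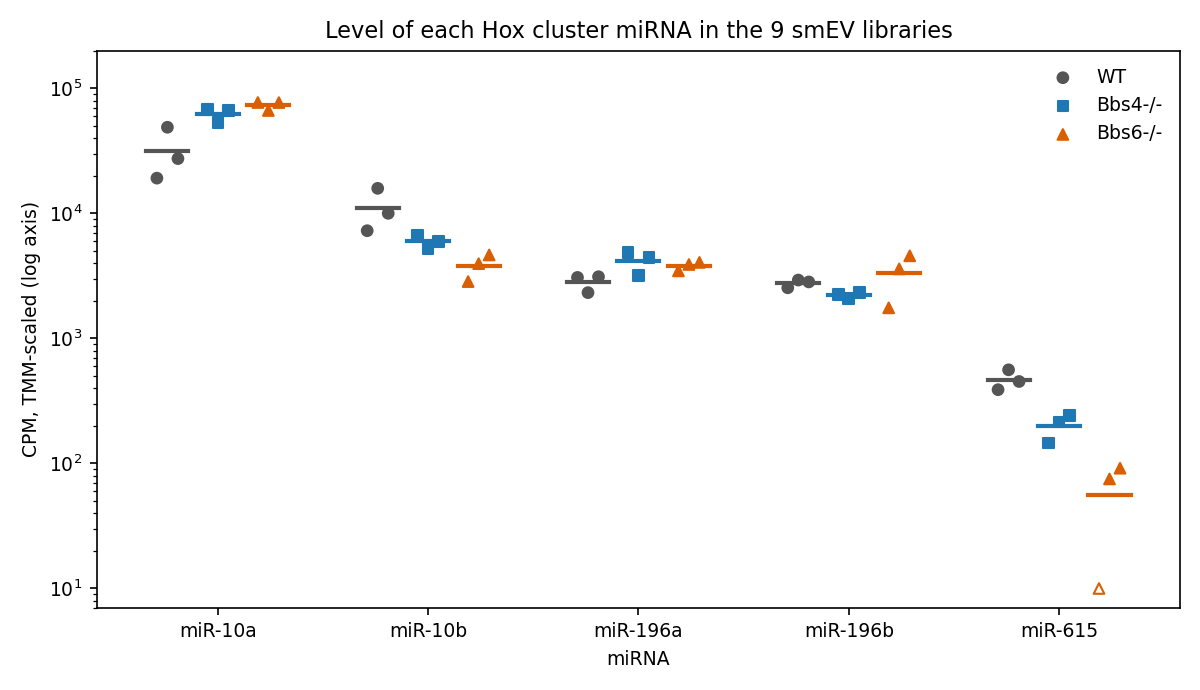
Level of each Hox cluster miRNA in TMM-scaled CPM on a log axis. Each point is 1 library, horizontal bars are the means of 3 libraries, and the open triangle at the bottom stands for the count of 0 of miR-615 in Bbs6-/- replicate 2, which a log axis cannot show. The WT points of miR-10a lie below, and those of miR-10b and miR-615 above, all points of both mutants.

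miR-10a was among the most abundant vesicle miRNAs, ranking between 2nd and 12th in every library. Its level was 19147, 48872 and 27441 CPM in WT replicates 1, 3 and 4. In Bbs4-/- it was 67776, 53618 and 66497 CPM, and in Bbs6-/- 77092, 66537 and 77010 CPM. Every mutant library was above every WT library, WT replicate 3 came closest, and the mutants overlapped each other. The means were 31820 ± 15339 CPM in WT, 62630 ± 7831 in Bbs4-/- and 73546 ± 6070 in Bbs6-/- (SD, n = 3 each). The log2 fold change was 0.87 (SE 0.28) for Bbs4-/- over WT, 1.27 (SE 0.26) for Bbs6-/- over WT and -0.23 (SE 0.27) for Bbs4-/- over Bbs6-/-. Without WT replicate 3 the values of Bbs4-/- and Bbs6-/- over WT were 1.33 and 1.61. Without WT replicate 1 they fell to 0.75 and 0.92, and with plain library totals to 0.72 and 0.86.

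miR-10b, which carries the same seed, had the opposite order of the lines. Its level was 7270, 15869 and 10013 CPM in WT, 6657, 5267 and 5990 CPM in Bbs4-/- and 2848, 3961 and 4651 CPM in Bbs6-/-. The 3 lines did not overlap, with WT highest, Bbs4-/- between and Bbs6-/- lowest, although the lowest WT library was only a little above the highest of Bbs4-/-. The means were 11051 ± 4393, 5971 ± 695 and 3820 ± 910 CPM (SD, n = 3 each). The log2 fold change was -1.001 (SE 0.26) for Bbs4-/- over WT, -1.47 (SE 0.29) for Bbs6-/- over WT and 0.64 (SE 0.27) for Bbs4-/- over Bbs6-/-. Without WT replicate 3 the first was -0.63, and without Bbs6-/- replicate 2 the last was 0.37. miR-10b ranked 15th to 26th in WT, 32nd to 35th in Bbs4-/- and 40th to 47th in Bbs6-/-.

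WT replicate 3 was the highest WT library for both miRNAs, and in WT their ratio within a library varied far less than either level. In Bbs6-/- it did not: there the ratio varied about as much as miR-10b and more than miR-10a. This ratio of 2 counts needs no scaling. In WT it was 2.63, 3.08 and 2.74 copies of miR-10a for each miR-10b, in Bbs4-/- 10.2, 10.2 and 11.1, and in Bbs6-/- 27.1, 16.8 and 16.6. The lines did not overlap, and the gap between WT and either mutant was several times the spread within a line. On the log2 scale the mean ratio was 1.49 ± 0.12 in WT, 3.39 ± 0.07 in Bbs4-/- and 4.29 ± 0.40 in Bbs6-/- (SD, n = 3 each). Bbs4-/- was above WT by 1.898 (SE 0.08), or 3.73-fold, and Bbs6-/- by 2.80 (SE 0.24), or 6.97-fold. Bbs4-/- minus Bbs6-/- was -0.90 (SE 0.24). Without Bbs6-/- replicate 2, which had the highest ratio, the differences were 2.57 and -0.67.

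The miR-196 pair was at much lower levels and differed less. miR-196a was at 3076, 2324 and 3116 CPM in WT, 4861, 3189 and 4442 CPM in Bbs4-/- and 3468, 3903 and 4056 CPM in Bbs6-/-. Both mutants were above WT in every library, by a narrow margin for Bbs4-/- replicate 2, and the mutants overlapped. The means were 2839 ± 446, 4164 ± 870 and 3809 ± 305 CPM (SD, n = 3 each), and the log2 fold change was 0.44 (SE 0.23) for Bbs4-/- over WT, 0.44 (SE 0.24) for Bbs6-/- over WT and 0.13 (SE 0.22) between the mutants. This separation depended on the scaling: in counts divided by the plain library total both mutants overlapped WT, and the log2 fold changes were 0.24 and 0.01. The sign of the difference between the mutants turned under other settings, for example to -0.03 with their 6 libraries alone.

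miR-196b was at 2541, 2930 and 2831 CPM in WT, 2244, 2087 and 2340 CPM in Bbs4-/- and 1756, 3599 and 4577 CPM in Bbs6-/-. Bbs4-/- lay below WT in every library, while Bbs6-/- spanned both other lines, with replicate 2 the lowest and replicate 4 the highest of all 9 libraries. The means were 2767 ± 202, 2224 ± 128 and 3311 ± 1432 CPM (SD, n = 3 each). The log2 fold change was -0.43 (SE 0.21) for Bbs4-/- over WT, 0.30 (SE 0.34) for Bbs6-/- over WT and -0.58 (SE 0.28) for Bbs4-/- over Bbs6-/-. Bbs6-/- replicate 2 decided much of this: without it the values of Bbs6-/- over WT and of Bbs4-/- over Bbs6-/- were 0.63 and -0.97. With plain library totals the value of Bbs6-/- over WT was -0.16, of the other sign.

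The ratio of miR-196a to miR-196b was 1.21, 0.793 and 1.10 in WT, 2.17, 1.53 and 1.899 in Bbs4-/- and 1.98, 1.09 and 0.886 in Bbs6-/-. The pair was near balance in WT, miR-196a was ahead in each Bbs4-/- library, and in Bbs6-/- only replicate 2 was clearly above WT. The mean log2 ratio was 0.03 ± 0.32, 0.88 ± 0.25 and 0.31 ± 0.60 (SD, n = 3 each), so that Bbs4-/- was above WT by 0.86 (SE 0.24) without overlap. Bbs6-/- differed from WT by 0.28 (SE 0.39), less than the spread, and by -0.055 without replicate 2. Bbs4-/- minus Bbs6-/- was 0.58 (SE 0.38), with overlap.

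**Figure D3:**
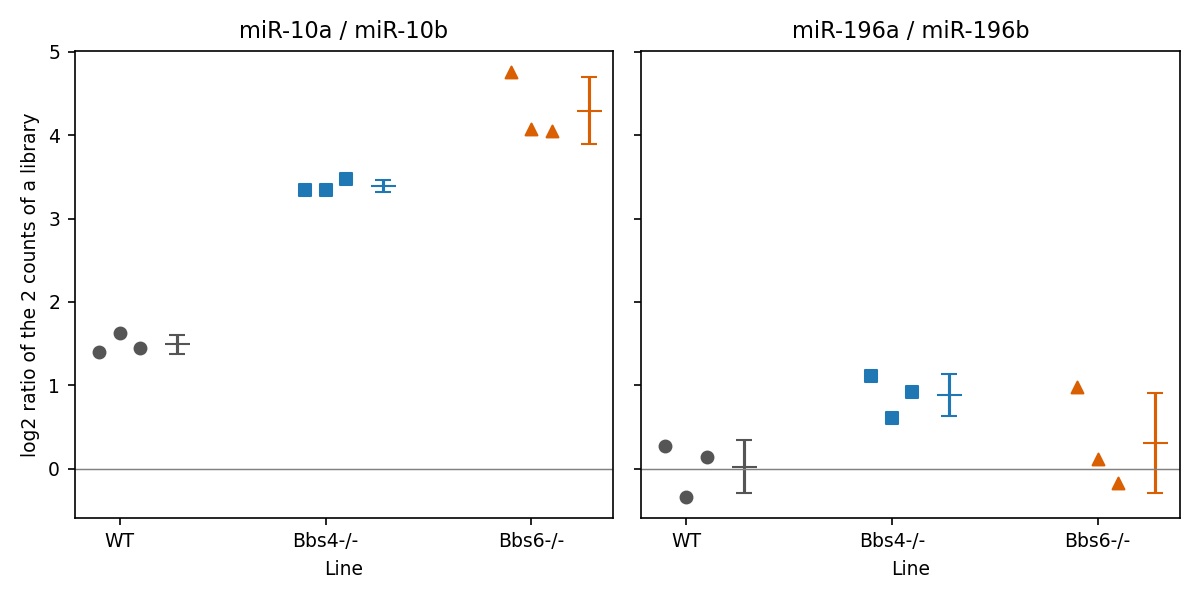
Log2 of the ratio of 2 counts of the same library, miR-10a to miR-10b on the left and miR-196a to miR-196b on the right, for the 3 lines. Points are libraries and the bars beside them the mean ± SD of 3 libraries. The miR-10 ratio has 3 separate levels, whereas the miR-196 ratio of Bbs6-/- spans 0.886 to 1.98 on the linear scale and overlaps both other lines.

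The table also has rows named for the 2 miR-196a genes. In RefSeq these names belong to the 3p arms of the Hoxb and Hoxc hairpins, and their sequences, with the seed in capitals, show that these arms can tell the copies apart where the 5p arm cannot.
miR-196a-1-3p: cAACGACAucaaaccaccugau
miR-196a-2-3p: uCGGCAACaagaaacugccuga

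The row miR-196a-1, of the Hoxb copy, had 8, 6 and 4 counts in WT, 9, 28 and 47 in Bbs4-/- and 9, 29 and 28 in Bbs6-/-. These were few molecules, with means of 58.9 ± 36.0, 97.2 ± 35.8 and 76.2 ± 25.1 CPM (SD, n = 3 each), and the lines overlapped in every comparison. The row miR-196a-2, of the Hoxc copy, had no count in any of the 9 libraries, where 3 counts correspond to between 6.98 and 36.5 CPM, so a level below that was not detectable. Of the 62 rows with a locus number, 56 had a name found in RefSeq once the arm is removed, and for 54 of these the name without the number was also in RefSeq. For 53 of the 54 it stood on the other arm, which is why the miR-196a row is read here as the shared 5p form. The deposited table does not state this.

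miR-615, from an intron of Hoxc5, was the rarest member. It had 32, 63 and 70 counts in WT, 23, 48 and 104 in the Bbs4-/- libraries, whose totals were larger, and 0, 22 and 32 in Bbs6-/-. As levels these were 389, 561 and 453 CPM in WT, 145, 215 and 242 CPM in Bbs4-/- and 0, 75.2 and 91.6 CPM in Bbs6-/-. The 3 lines did not overlap, in the order WT, Bbs4-/- and Bbs6-/-. The count of 0 in Bbs6-/- replicate 2 allows up to 16.5 CPM, still below the other libraries. The limit covers counting error only. The means were 468 ± 87.0, 201 ± 49.9 and 55.6 ± 48.8 CPM (SD, n = 3 each). The log2 fold change was -1.32 (SE 0.35) for Bbs4-/- over WT, -2.94 (SE 0.84) for Bbs6-/- over WT and 1.79 (SE 0.68) for Bbs4-/- over Bbs6-/-, and without Bbs6-/- replicate 2 the last 2 were -2.40 and 1.19.

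**Figure D4:**
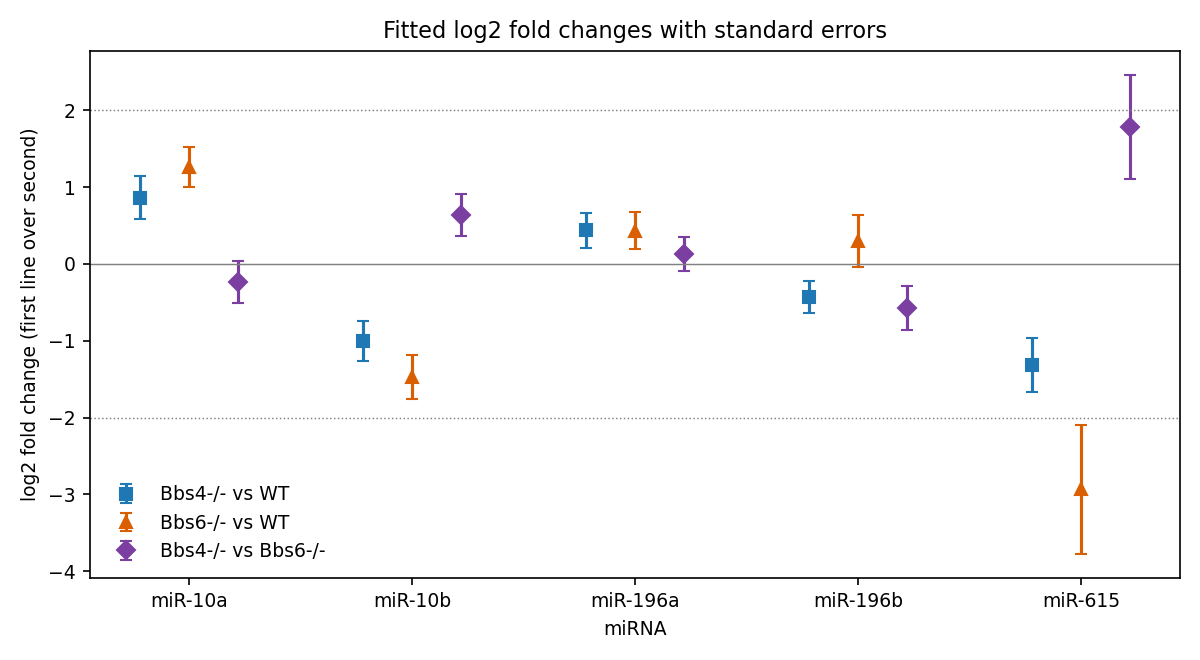
Log2 fold changes of the Hox cluster miRNAs from the fit over all miRNAs, with the SE as error bars, for each mutant over WT and for Bbs4-/- over Bbs6-/-. Dotted lines mark a change of 2 in either direction. miR-615 in Bbs6-/-, at -2.94, is the only value outside them.

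Each comparison was fitted over all miRNAs with enough counts. A call needed a Benjamini-Hochberg adjusted p under 0.1 by edgeR's quasi-likelihood test together with a log2 fold change of 2 or more, up or down. In Bbs4-/- over WT 0 of the 5 were called, beside 6.17% of the 308 miRNAs tested. At the adjusted p alone it was 3 of 5 (miR-10a, miR-10b and miR-615), beside 15.3%, and all 5 had libraries that did not overlap, beside 31.8%. In Bbs6-/- over WT 1 of the 5 was called (miR-615), beside 4.03% of 298. There the adjusted p alone gave the same 3 names, beside 15.1%, and 4 of 5 did not overlap, beside 29.2%. In Bbs4-/- over Bbs6-/- 0 of the 5 were called, beside 3.88% of 309. None passed the adjusted p, beside 8.09%, and 2 (miR-10b and miR-615) did not overlap, beside 22.0%. These counts moved with single libraries: for Bbs4-/- over WT 0 passed the adjusted p without Bbs4-/- replicate 1, and for Bbs6-/- over WT miR-615 was not called and 1 passed without Bbs6-/- replicate 3, WT replicate 1 or WT replicate 4. Without Bbs6-/- replicate 2, 4 passed for Bbs6-/- over WT and 2 for Bbs4-/- over Bbs6-/-. Since the members were chosen with these values known, nothing is read from the shares. The median log2 fold change of the 5 was -0.43, 0.30 and 0.13 in the 3 comparisons, beside -0.02, -0.01 and 0.04 over all miRNAs tested.

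Both mutants were compared with the same WT libraries, so their values are not independent of each other. Levels are relative to the other miRNAs of a library and are not amounts per vesicle. A lower level may stand for fewer vesicles that carry the miRNA, fewer copies in each or more of other miRNAs. These cannot be told apart.

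The loci were also set against each other within each library. miR-10b over miR-196a, the Hoxd gene over the Hoxb and Hoxc copies, had a mean log2 ratio of 1.899 ± 0.79 in WT, 0.54 ± 0.16 in Bbs4-/- and -0.02 ± 0.24 in Bbs6-/- (SD, n = 3 each). The lines did not overlap, and in Bbs6-/- the miRNAs were level. miR-10b over miR-196b, the Hoxd over the Hoxa gene, was 1.92 ± 0.47, 1.42 ± 0.13 and 0.29 ± 0.36, with Bbs4-/- overlapping WT and Bbs6-/- below both. miR-10a over miR-196b, the Hoxb over the Hoxa gene, was 3.42 ± 0.59, 4.81 ± 0.12 and 4.58 ± 0.76, with both mutants above WT and overlapping each other. miR-10a over miR-196a was 3.39 ± 0.91, 3.93 ± 0.14 and 4.27 ± 0.19, and here both mutants overlapped WT.

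Against miR-615, the other Hoxc product, miR-10a was ahead 49.2 to 87.1 times in WT and 249 to 466 times in Bbs4-/-. In Bbs6-/- replicates 3 and 4 it was 885 and 841 times, and replicate 2 gave no ratio since miR-615 was at 0. miR-196a over miR-615 ran from 4.14 to 7.91 in WT and from 14.8 to 33.4 in Bbs4-/-, and was 51.9 and 44.3 in Bbs6-/- replicates 3 and 4. These ratios followed the order WT, Bbs4-/- and Bbs6-/- with no overlap. miR-10b over miR-615 overlapped between WT (18.7 to 28.3) and Bbs4-/- (24.5 to 45.8). It was 52.7 and 50.8 in Bbs6-/- replicates 3 and 4.

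To place the pairs, the same ratio was taken for the 9 a/b pairs of entries named miR with at least 10 counts in all libraries. Entries named let-7 were not taken. The median size of the shift in mean log2 ratio was 0.32 for Bbs4-/- against WT, 0.67 for Bbs6-/- against WT and 0.58 between the mutants. miR-10a/miR-10b had the largest shift of the 9 against WT in both mutants and the second largest between them, after miR-125a/miR-125b at 1.04. Against WT the shift of miR-125a/miR-125b was 0.71 and 1.75. miR-196a/miR-196b came 2nd, 8th and 5th in the 3 comparisons. Libraries did not overlap for 5, 3 and 3 of the 9 pairs.

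**Figure D5:**
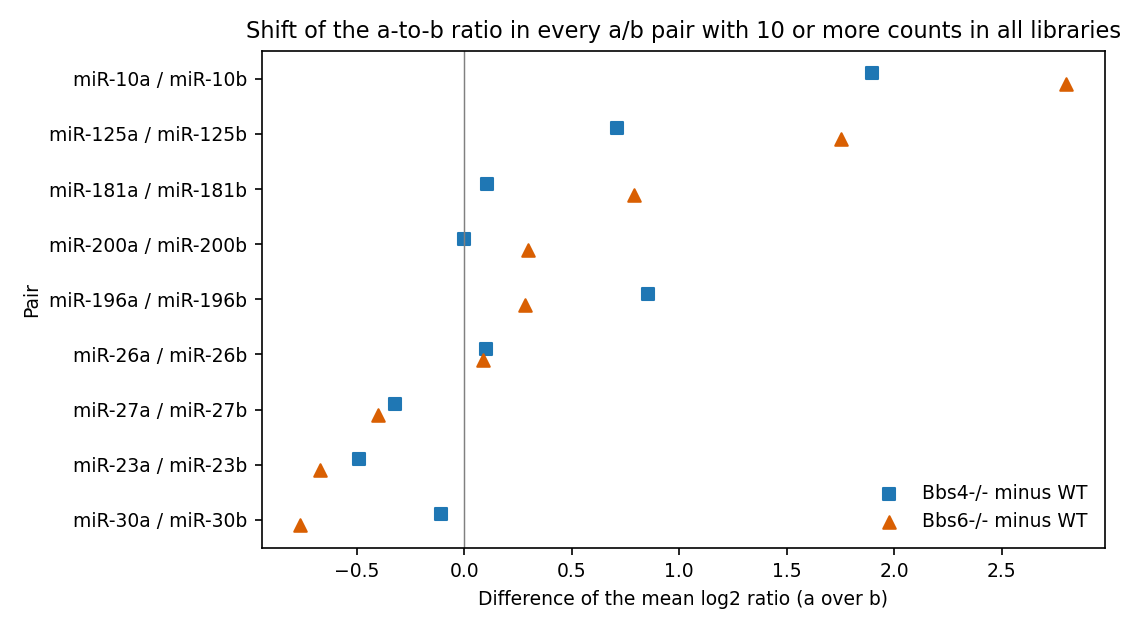
Difference from WT of the mean log2 ratio of the a to the b member, for every a/b pair of entries named miR (let-7 left out) with at least 10 counts in all 9 libraries. Squares are Bbs4-/- minus WT and triangles Bbs6-/- minus WT. miR-10a/miR-10b lies farthest from 0 in both, at 1.898 and 2.80.

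The miR-99 and miR-100 miRNAs are relatives of miR-10 outside the Hox clusters, with a seed that differs from that of miR-10. Their 5p forms are shown with the seed in capitals for comparison.
miR-99a-5p: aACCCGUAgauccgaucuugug
miR-99b-5p: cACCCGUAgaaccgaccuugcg
miR-100-5p: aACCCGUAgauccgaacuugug

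miR-99a had 0, 1 and 4 counts in WT, 17, 51 and 58 in Bbs4-/- and 114, 19 and 32 in Bbs6-/-, and was called higher in both mutants (edgeR adjusted p = 0.00733 and 0.0498, log2 fold changes 3.36 and 4.16). The WT counts are near 0, so these fitted folds depend on the prior count, and most of the Bbs6-/- counts were in replicate 2, the library that stood apart. miR-99b, at means of 8435 ± 1913, 12191 ± 325 and 9396 ± 2057 CPM (SD, n = 3 each) in WT, Bbs4-/- and Bbs6-/-, was not called, with log2 fold changes of 0.42 (SE 0.21) and 0.18 (SE 0.20). miR-100 was at 547, 757 and 478 CPM in WT, 613, 484 and 412 CPM in Bbs4-/- and 132, 270 and 272 CPM in Bbs6-/-. Bbs4-/- overlapped WT and Bbs6-/- was below both, with log2 fold changes of -0.35 (SE 0.31) and -1.34 (SE 0.39) over WT. Neither was called, though the second had an edgeR adjusted p of 0.0640. Among the 3, 1 was called higher and 0 lower in each mutant, beside 6.17% of all miRNAs tested in Bbs4-/- over WT and 4.03% in Bbs6-/- over WT, called in either direction.

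The miRNAs whose log2 level was most like that of each member were sought over the 9 libraries among those with at least 10 counts in each. These correlations are a description over 9 points that share 3 lines and the scaling. By Pearson's r, miR-10a was most like miR-200b (r = 0.95, Spearman's rho = 0.85), of the epithelial miR-200 family, and miR-26a (r = 0.94, rho = 0.92), though with plain library totals the first r was 0.34. miR-10b was most like miR-6538 (r = 0.90, rho = 0.83) and miR-351 (r = 0.88, rho = 0.90), and miR-196a was most like miR-7a (r = 0.93, rho = 0.95) and let-7i (r = 0.86, rho = 0.87). The closest to miR-196b were miR-96 (r = 0.70, rho = 0.70) and miR-3535 (r = 0.68, rho = 0.40), with a lower r than for any other member. miR-615 was most like miR-100 (r = 0.92, rho = 0.75) and then like miR-10b (r = 0.86, rho = 0.95), and by rho miR-10b came 1st and miR-100 9th. miR-615 itself, at 0 in Bbs6-/- replicate 2, was not among the candidates for the other members. Between the members of a pair r was -0.53 for miR-10a with miR-10b and 0.02 for miR-196a with miR-196b.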

How the data were processed

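Small RNA of 18 to 40 nt from smEV pellets was sequenced in 9 libraries. The authors trimmed adapters (cutadapt 1.9, per the submitters' processing notes), removed low-quality reads, collapsed PCR duplicates by unique molecular identifiers and counted reads per miRNA with miRDeep2, and where a miRNA had several entries they kept the largest. The deposited table holds raw counts. Its miRBase release and mismatch setting are not given in the sources used here.

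Counts were fitted in R 4.3.3 with edgeR 4.0.16 (TMM, quasi-likelihood test, Benjamini-Hochberg over all miRNAs tested). Each mutant against WT used 6 libraries and miRNAs with at least 6 counts in total. The direct comparison used all 9 libraries and at least 9 counts. The SE is the size of the log2 fold change divided by the square root of F. CPM were scaled over 9 libraries, and correlations used log2 CPM (prior count 2). The fit was tested on simulated data. Groups come from the labelled genotype. For Bbs6-/- and WT the column numbers are not those of the labels, so a column stands for its genotype and not for a labelled sample. The pellets are described as independent. No per-sample column was left out.

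Named miRNAs are the 5 members, the rows named for miR-196a genes, miR-99a, miR-99b and miR-100, and the 2 entries most correlated with each member. miR-125a/miR-125b was named after its values were seen. Members and lists were chosen with earlier results of these data known. Alternatives were DESeq2 1.42.0, its size factors, total counts, no filter, filterByExpr, robust spread, other sets of libraries and leaving out each library. Figures were drawn with matplotlib 3.10.9.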

Additional observations from a re-analysis of the deposited data

Results flagged for a closer look

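miR-100, the relative of miR-10 with the highest Pearson correlation with miR-615, had an adjusted p just under 0.1 between the mutants. Bbs4-/- exceeded Bbs6-/- by 1.15 on the log2 scale (SE 0.36, edgeR adjusted p = 0.0978 over 309 miRNAs), with all 3 Bbs4-/- libraries above all 3 Bbs6-/- libraries. Of the 309 miRNAs, 8.09% had an adjusted p under 0.1 and 22.0% had libraries that did not overlap. Bbs6-/- replicate 2, the library that stood apart, had the lowest level of miR-100. The miR-100 value under other settings was not examined. None of the 5 Hox cluster miRNAs had an adjusted p under 0.1 in that comparison. The test for a single outlying value of a miRNA was not run, since each group has 3 libraries.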

How the results depend on the processing

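No paired analysis was possible because for Bbs6-/- and WT the column numbers are not those of the labels. Of 105 member fold changes under settings that kept all libraries, 95 kept their direction and side of the threshold, 1 lost it, 6 gained it and 3 reversed, and of the 12 ratio differences all 12 kept their direction. Leaving out 1 library at a time was less steady. Of 105 such fold changes 88 kept both, 10 lost the threshold, 3 gained it and 4 reversed, and 1 of 36 ratio differences reversed. No fold change of miR-10a, miR-10b or miR-615 over WT reversed.

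Between the mutants, the members with an adjusted p under 0.1 were 0, but 1 with DESeq2 (miR-615), 1 with total counts (miR-10b) and 2 without a filter (miR-196b and miR-615). Leaving out 1 library at a time gave 0 to 2 (2 without Bbs6-/- replicate 2). It gave 0 to 3 for Bbs4-/- over WT, with 0 without Bbs4-/- replicate 1, and 1 to 4 for Bbs6-/- over WT, with 1 without Bbs6-/- replicate 3, WT replicate 1 or WT replicate 4. Without any of these 3 libraries miR-615 was not called in Bbs6-/- (0 to 1 called). Over all libraries left out in turn its log2 fold change was between -3.48 and -2.40. Over WT in Bbs4-/- miR-615 also missed the adjusted p in the 9-library fit (-1.21), and miR-10a missed it without WT replicate 4 (0.79).

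Reversed values were all small. miR-196b in Bbs6-/- over WT was -0.16 with total counts and ran from -0.048 (without Bbs6-/- replicate 4) to 0.629 (without Bbs6-/- replicate 2). miR-196a in Bbs4-/- over Bbs6-/- was -0.014 without a filter and -0.028 with 6 libraries, and leaving out 1 library it ran from -0.040 (Bbs6-/- replicate 2) to 0.288 (Bbs4-/- replicate 2), also below 0 without Bbs4-/- replicate 3 or WT replicate 1. The miR-196a/miR-196b difference of Bbs6-/- from WT ran from -0.055 (without Bbs6-/- replicate 2) to 0.52. The cause was not tested. Total counts moved the median of all miRNAs by -0.16, -0.40 and 0.10 in Bbs4-/- over WT, Bbs6-/- over WT and Bbs4-/- over Bbs6-/-. Relative to the first 2 shifts, miR-196a stayed above the median in both mutants. With total counts, chosen after seeing the data, 4, 3 and 2 members did not overlap, in place of 5, 4 and 2. The totals of the WT libraries were the lowest, and 3 counts there correspond to up to 36.5 CPM.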
